A study of Mus musculus with 10 samples.

Results

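The Ifitm genes code for interferon-induced transmembrane proteins, small proteins of the cell surface and of endosomes. Ifitm1, Ifitm2, Ifitm3 and Ifitm6 are described here in mouse blood leukocytes, as 4 of the 32285 genes of the count table and 4 of its 7 Ifitm genes. They were chosen from results of these same libraries, in which their counts climbed over hours of sleep deprivation, so their levels in the sleep-deprived libraries are a description with no test. Blood came from C57/BL6J mice under pentobarbital anaesthesia, and each library held RNA pooled from 3 mice. One control pool was taken at 0 h (Con). Sleep-deprived pools (SD) were taken after 6, 12, 24 and 48 h, and pools under an earlier published method of sleep restriction (SASD) after 6, 12, 24, 48 and 120 h. Each group was 1 library, so no group has a replicate check, and no control of a later hour was analysed here. The sources used here give neither age nor sex.

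IFITM proteins restrict enveloped viruses at the step of membrane fusion, as they sit in the membranes through which a virus must enter. IFITM3 acts mainly in endosomes and lysosomes, IFITM1 mainly at the cell surface, and IFITM2 between them. Interferons raise their transcription through the JAK-STAT pathway, and cytokines that signal through STAT3 can raise some of them too. In blood, Ifitm transcripts are abundant in myeloid cells. In these bulk samples, a change in the share of cells of a type and a change in RNA per cell cannot be told apart.

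Counts per library ran from 7825120 (SASD 24 h) to 27501393 (Con). Con, SD 48 h and SASD 48 h stood apart from the other 7 libraries: globin genes took 0.275% to 0.727% of their counts against 3.57% to 6.96%. Between 300 and 842 olfactory receptor genes had a count in those 3 libraries, against 30 to 56 elsewhere. The labels tie this difference to no batch. It runs along the time course, since the start and the 48 h libraries of both methods share it, whereas SD and SASD of the same hour always fell on the same side of it. All markers listed for mature neutrophils, classical monocytes, B cells, T cells and NK cells had counts in every library, as did those of platelets and red cells, whose RNA the pools also held.

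The 4 genes lie within one stretch of chromosome 7 of GRCm38 (mm10): Ifitm2 at 140954837 to 140955987 (minus strand), Ifitm1 at 140967221 to 140969825 (plus), Ifitm3 at 141009586 to 141010770 (minus) and Ifitm6 at 141015699 to 141017924 (minus). They are near copies. In GENCODE M21 coding sequence, Ifitm1 was 84.7% identical to Ifitm2 and 85.6% to Ifitm3, and Ifitm2 was 84.0% identical to Ifitm3. Ifitm6 was the most distant, at 72.9% to 75.7%. The longest runs of identical bases, both within coding exons, are shown because reads inside them cannot be assigned to 1 gene, with capitals for the 40 bases that Ifitm1, Ifitm2 and Ifitm3 all hold:
Ifitm1 and Ifitm3: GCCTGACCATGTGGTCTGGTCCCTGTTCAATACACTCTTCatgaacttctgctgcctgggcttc
Ifitm2 and Ifitm3: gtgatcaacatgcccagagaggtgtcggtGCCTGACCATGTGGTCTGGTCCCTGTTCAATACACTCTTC
The runs are 64 and 69 bases long, and no pair of the 4 genes shared a run of 75 bases anywhere in its transcripts. Of the runs of 50 bases in Ifitm3 transcripts, 15 of 629 were shared with Ifitm1 and 20 of 629 with Ifitm2. None was shared between Ifitm1 and Ifitm2, or by Ifitm6 with any of the other 3.

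The promoters are shown because the 4 genes moved apart from each other across the libraries. The sequences come from RefSeq on GRCm38.p6, each reading 5′ to 3′ along its gene and ending just before the first GENCODE exon that starts there. Capitals mark a match to any of 5 motifs searched on both strands:
Ifitm1, chr7:140967878-140968027, plus strand: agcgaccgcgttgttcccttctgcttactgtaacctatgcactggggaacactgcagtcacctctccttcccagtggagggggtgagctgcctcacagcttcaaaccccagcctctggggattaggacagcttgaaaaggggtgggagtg
Ifitm2, chr7:140955988-140956137, minus strand: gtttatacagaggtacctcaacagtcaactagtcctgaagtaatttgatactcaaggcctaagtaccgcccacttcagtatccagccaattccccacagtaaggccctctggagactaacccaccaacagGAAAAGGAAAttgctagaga
Ifitm3, chr7:141010771-141010920, minus strand: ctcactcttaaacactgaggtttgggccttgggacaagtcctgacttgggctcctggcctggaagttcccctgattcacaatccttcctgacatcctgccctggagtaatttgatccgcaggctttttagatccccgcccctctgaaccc
Ifitm6, chr7:141016909-141017058, minus strand: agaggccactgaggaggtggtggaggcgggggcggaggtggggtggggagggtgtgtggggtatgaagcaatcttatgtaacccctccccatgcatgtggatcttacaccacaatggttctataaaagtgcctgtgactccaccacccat
The Ifitm1 and Ifitm6 stretches are intronic to longer transcripts of the same genes, whose first exons lie further upstream. The bases before those upstream exons were not searched. The windows searched were the 250 bases before each RefSeq start. Among them only that of Ifitm2 held the core of the interferon-stimulated response element (GAAA, any 2 bases, GAAA), 46 to 37 bases before the start. That core occurs in 2.98% of 32851 mouse promoters of this length. Ifitm6 held a gamma-activated sequence (TTCNNNGAA, the site of STAT dimers, in 7.02% of promoters) 10 to 2 bases before its start, outside the printed stretch. The PU.1 core GAGGAAGT (2.44% of promoters), the C/EBP core TTGCNNAA (9.56%) and the NF-kB core GGGANTTCC (1.43%) had no match in these windows for the 4 genes.

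Ifitm1, the surface member, moved most. Its level in CPM (read pairs relative to the library's total, after TMM scaling between libraries) was 22.9 in Con. It was 53.5, 140.8, 176.5 and 362.8 in SD at 6, 12, 24 and 48 h. In SASD it was 54.5, 33.3, 35.4, 27.8 and 31.3 at 6, 12, 24, 48 and 120 h. The 2 methods stood together at 6 h, both above Con, and from 12 h every SD library lay above every SASD library. The SD 48 h level was 15.9 times that of Con (95% interval 14.7 to 17.2, counting error only, as for every interval here), and the SASD 48 h level 1.22 times (1.10 to 1.35). These levels rest on 229 to 5348 read pairs per library.

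Ifitm2 also stood apart between the methods from 12 h, over a narrower range. Its level was 47.2 CPM in Con and 106.0, 217.4, 260.9 and 315.8 CPM over the SD series. Over the SASD series it was 95.03, 64.4, 96.4, 81.8 and 77.1 CPM. All 5 SASD libraries lay between 1.37 and 2.04 times Con, and the SD libraries between 2.25 and 6.69 times. From 12 to 48 h Ifitm2 added less than Ifitm1: the step from SD 24 h to SD 48 h was 1.21 times (1.16 to 1.27) for Ifitm2 and 2.06 times (1.95 to 2.17) for Ifitm1.

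Ifitm3, the endosomal member, was high under both methods by 48 h. It stood at 65.3 CPM in Con and at 92.4, 113.0, 205.6 and 202.7 CPM in SD. In SASD it stood at 109.5, 71.7, 94.3, 171.2 and 143.3 CPM. The SD libraries levelled off after 24 h, with a 48 h over 24 h ratio of 0.986 (0.933 to 1.04). In SASD, the level at 48 h was 1.82 times that at 24 h (1.67 to 1.98). SD and SASD overlapped for this gene, and SASD 48 h lay above SD at 6 and 12 h.

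Ifitm6 started lowest and rose late. Its level was 16.2 CPM in Con, then 18.9, 28.4, 65.2 and 138.6 CPM in SD, and 20.4, 11.5, 11.6, 36.2 and 24.0 CPM in SASD. At 12 and 24 h of SASD it lay below Con, at 0.710 times (0.570 to 0.876) and 0.716 times (0.555 to 0.914). In SD, Ifitm6 stood 2.30 times higher at 24 h than at 12 h (1.999 to 2.65), and 2.13 times higher at 48 h than at 24 h (1.95 to 2.32). For every member, the step from 24 to 48 h also runs from a library rich in globin counts to a poor one. In the same way, Con was poor in globin counts and every library outside 48 h was rich, so ratios of those libraries to Con cross the split. The parts of time and of the split cannot be told apart in these steps and ratios. SASD 48 h lay above SD at 6 and 12 h for Ifitm6 as well.

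**Figure D1:**
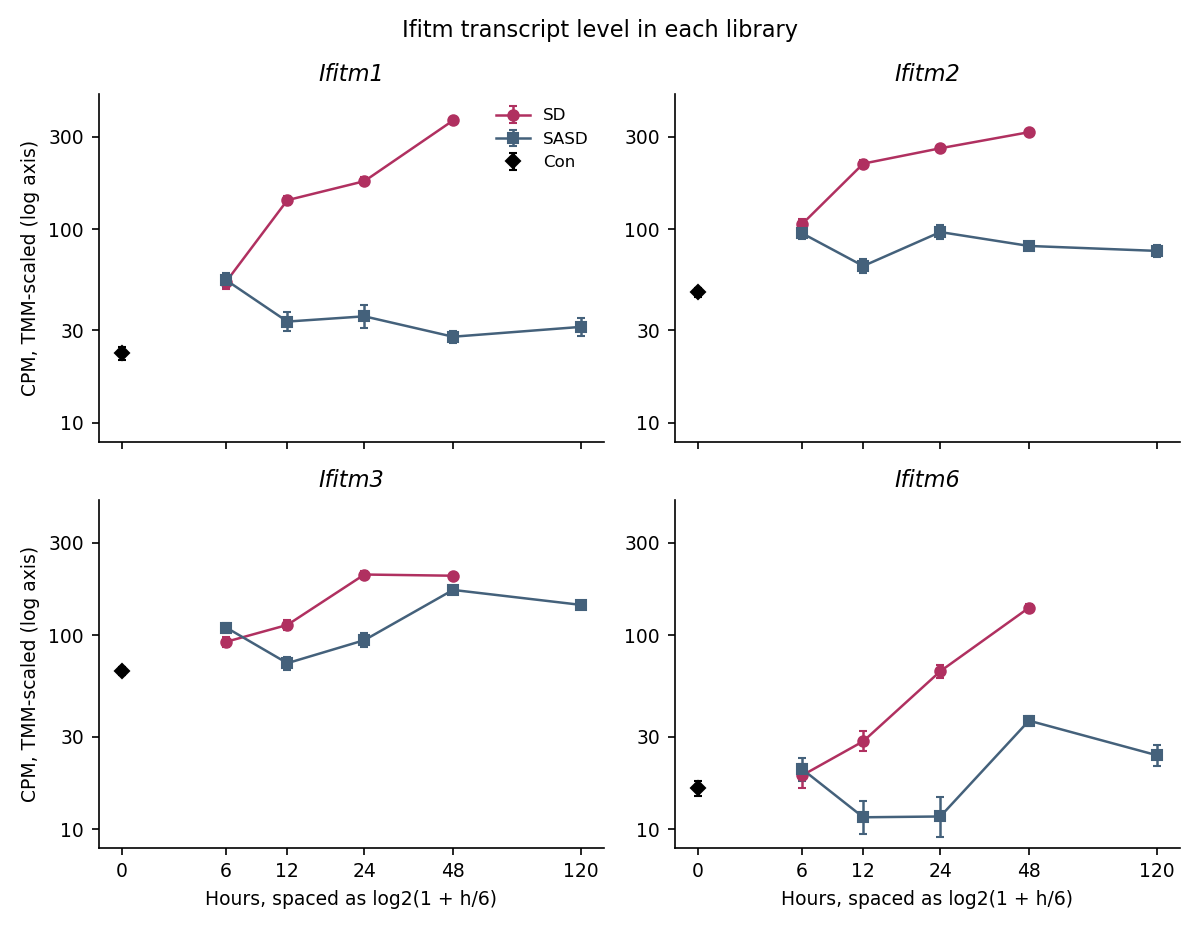
Level of each Ifitm gene in the 10 libraries, in TMM-scaled CPM on a log axis against hours; each point is 1 library of 3 pooled mice and bars are 95% counting intervals. Ifitm1 separates the methods from 12 h (140.8 against 33.3 CPM), while Ifitm3 ends near the same level at 48 h (202.7 against 171.2 CPM).

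The other 3 Ifitm genes of the table were low. Ifitm10, a distant member of the family, ranged from 4.80 to 10.9 CPM with SD and SASD mixed. Ifitm5, a gene of bone-forming cells, had 1 to 19 read pairs per library. Ifitm7, on chromosome 16, had 8 read pairs in Con, 3 in each of the 48 h libraries (these 3 being poor in globin counts) and 0 in the other 7, where 3 counts is the limit that a count of 0 allows.

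Per kilobase of exon, Ifitm3 was the highest of the 4 in Con, at 96.4 CPM per kb, ahead of Ifitm2 (72.0), Ifitm1 (20.9) and Ifitm6 (17.9). After 48 h of SD the order was Ifitm2 at 482 CPM per kb, Ifitm1 at 332, Ifitm3 at 299 and Ifitm6 at 153. After 48 h of SASD it was Ifitm3 at 253, Ifitm2 at 125, Ifitm6 at 40.0 and Ifitm1 at 25.4. With the shortest annotated transcript as the length, a choice made after seeing the data, Ifitm1 ranked above Ifitm2 in SD 48 h, and above Ifitm3 in SD 12 h and SD 24 h.

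Ratios of read pairs within a library need no scaling between libraries and show the same turn. Ifitm1 had 0.350 read pairs for each of Ifitm3 in Con, then 0.579, 1.25, 0.859 and 1.79 over the SD series. Over the SASD series it had 0.497, 0.464, 0.376, 0.162 and 0.218. SD at 12 and 48 h were the libraries with more read pairs of Ifitm1 than of Ifitm3. Per kilobase of exon, Ifitm3 was still the higher in SD 12 h, at 167 against 129 CPM per kb. Against Ifitm2, Ifitm1 went from 0.484 in Con to 1.15 after 48 h of SD, and to 0.340 after 48 h of SASD. Of the read pairs of the 4 genes, Ifitm1 supplied 15.1% in Con, 35.6% after 48 h of SD and 8.77% after 48 h of SASD. Ifitm3 supplied 43.1%, 19.9% and 54.0% in the same libraries.

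**Figure D2:**
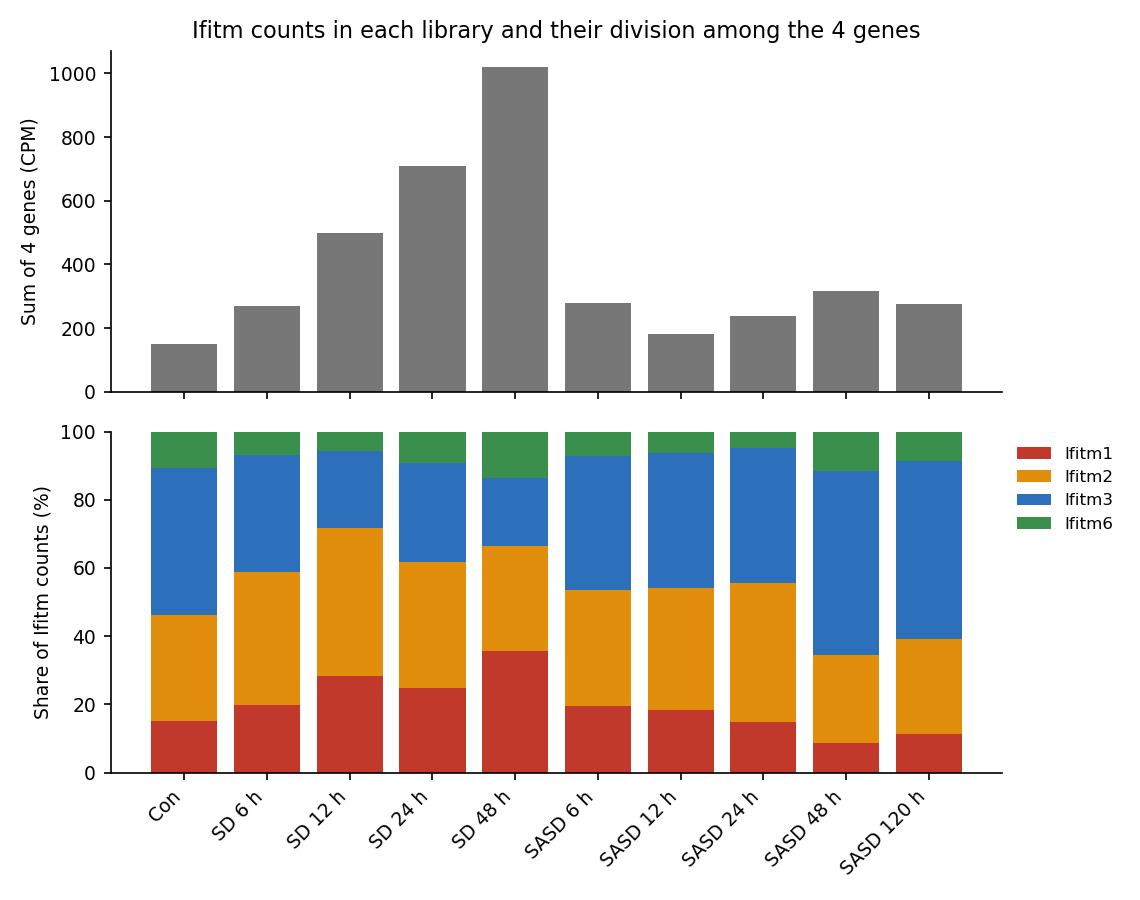
Upper bars give the sum of the 4 Ifitm genes in each library, in TMM-scaled CPM from 0, and lower bars the percentage of their read pairs that came from each gene; each bar is 1 library. The sum went from 152 CPM in Con to 1020 in SD 48 h, where Ifitm1 took 35.6% of it.

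A slope fitted over Con and the SD libraries, against log2(1 + hours/6), gave a log2 increase per doubling of 1.26 ± 0.12 (SE) for Ifitm1, 0.89 ± 0.15 for Ifitm2, 0.58 ± 0.09 for Ifitm3 and 1.02 ± 0.12 for Ifitm6. In this fit 18 genes passed an adjusted p of 0.05 by edgeR's quasi-likelihood test, 0.124% of the 14562 genes tested. Since the 4 genes were chosen from this course, no call is given for them and that count is background. No gene passed without SD 6 h, without SD 12 h, without SD 24 h or with hours on a linear scale. With a term for the 3 globin-poor libraries the slopes were 1.26, 0.88, 0.57 and 1.03.

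The SASD course shares Con with the SD course but none of its treated libraries. Its slopes were -0.04 ± 0.11 (SE) for Ifitm1, 0.10 ± 0.09 for Ifitm2, 0.28 ± 0.09 for Ifitm3 and 0.20 ± 0.13 for Ifitm6. None of the 4 passed edgeR's quasi-likelihood test, with an adjusted p of 0.99997 for each, and 0% of the 14602 genes tested passed. Unadjusted, 443 of those genes lay under a p of 0.05, and DESeq2 called 0 genes as well. Ifitm3 had the lowest unadjusted p of the 4, 0.0175 by edgeR's quasi-likelihood test. The 4 genes were chosen from the SD course, which shares Con, so nothing is read from that value. Without the Con library the Ifitm2 slope turned to -0.04, and without SASD 6 h the Ifitm1 slope turned to 0.07. Whether the SD and SASD slopes differ was not tested.

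Setting SD beside SASD at the same hour compares libraries on the same side of the globin split. At 6 h no Ifitm gene was 2 times higher in SD: the ratios were 0.982 (0.873 to 1.11) for Ifitm1, 1.12 (1.02 to 1.22) for Ifitm2, 0.844 (0.774 to 0.920) for Ifitm3 and 0.927 (0.761 to 1.13) for Ifitm6. Of 11537 genes, 0.104% reached that fold. At 12 h, 3 of the 4 reached it, against 2.8% of all genes: Ifitm1 at 4.23 times (3.73 to 4.80), Ifitm2 at 3.37 (3.08 to 3.70) and Ifitm6 at 2.47 (1.97 to 3.11), with Ifitm3 at 1.58 (1.43 to 1.74). At 24 h all 4 did, against 3.57% of all genes. Ifitm6 led with 5.61 times (4.42 to 7.22), followed by Ifitm1 at 4.98 (4.34 to 5.74), Ifitm2 at 2.71 (2.48 to 2.96) and Ifitm3 at 2.18 (1.99 to 2.39). At 48 h, 3 of the 4 did, against 4.13% of all genes. Ifitm1 was 13.05 times higher (12.1 to 14.1), Ifitm2 3.86 times (3.67 to 4.06) and Ifitm6 3.83 times (3.55 to 4.13), while Ifitm3 was 1.18 times higher (1.13 to 1.24).

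Over Con at 48 h, all 4 genes were at least 2 times higher in SD, as were 4.08% of the genes measured. In SASD, Ifitm3 at 2.62 times (2.49 to 2.76) and Ifitm6 at 2.24 times (2.01 to 2.49) were, beside 1.27% of the genes measured. Both comparisons share the 1 Con library. Scaling by total counts left each of the 4 SD over Con directions at 48 h as they were.

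A fit of SD against SASD with the hour as a block averages the difference over the 4 hours. The SD libraries are those from which the genes were chosen, so the values of the 4 genes in it are a description with no test. The mean log2 difference was 2.06 ± 0.53 (SE) for Ifitm1, 1.34 ± 0.27 for Ifitm2, 0.44 ± 0.20 for Ifitm3 and 1.42 ± 0.37 for Ifitm6. Over all genes, 0% of 13370 passed edgeR's quasi-likelihood test, with 1082 under an unadjusted p of 0.05, and DESeq2 called 169. Without the 6 h pair, at which the methods stood close together, the differences were 2.71, 1.71, 0.67 and 1.90, and edgeR called 237 genes.

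**Figure D3:**
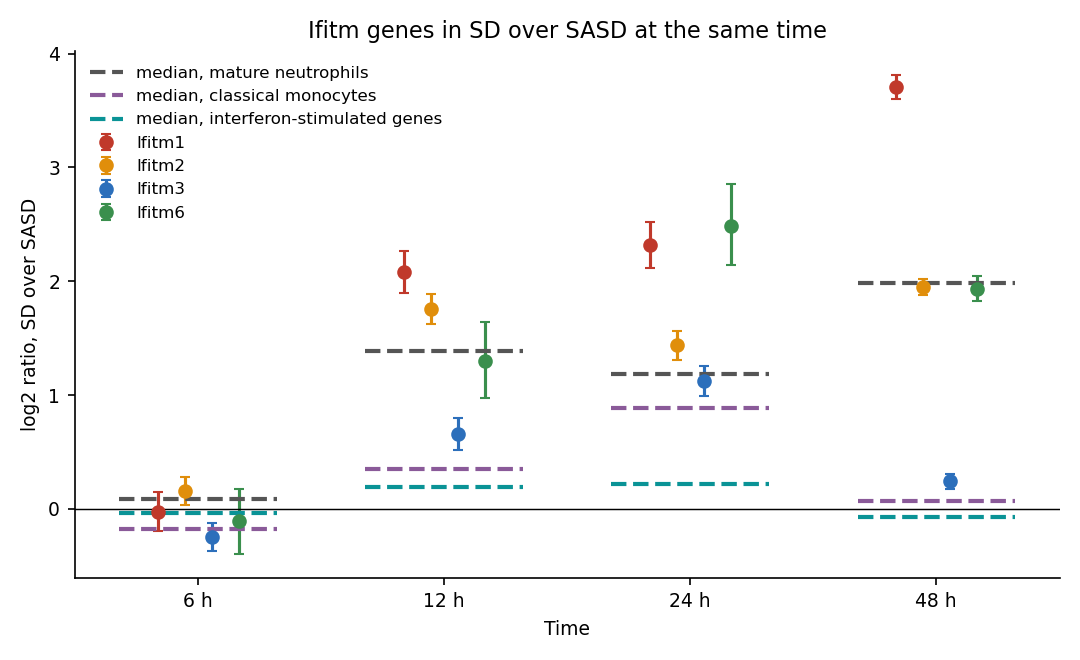
Log2 ratio of SD over SASD at the same hour for each Ifitm gene, with 95% counting intervals, 1 library against 1; dashed lines are medians of 3 gene lists. At 48 h Ifitm1 stands at 13.05 times, Ifitm3 lies near the classical monocyte median of 0.07, and the median of interferon-stimulated genes is -0.07.

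Other interferon-stimulated genes, as a list, had small slopes. None of a list of 40 passed in any of the 3 fits, in which 0.124%, 0% and 0% of all genes passed, so nothing is read from that count. Their median slope was 0.09 in SD and 0.08 in SASD, beside -0.01 for all genes, with 32 and 34 of the 40 above 0. Their median log2 ratio of SD over SASD was -0.04, 0.19, 0.22 and -0.07 at 6, 12, 24 and 48 h. Those at least 2 times higher in SD were 0 of 38 measured at 6 h, 1 of 38 at 12 h, 5 of 38 at 24 h and 0 of 39 at 48 h, beside 0.104%, 2.8%, 3.57% and 4.13% of all genes. Ly6e, a GPI-anchored protein that also acts on viral fusion, held between 1189 and 1388 CPM in all 10 libraries. Rsad2, which codes for the antiviral enzyme viperin, was at 122.9 CPM in Con, at 91.0 and 92.1 CPM at 48 h of SD and SASD, and at 645 to 3409 CPM elsewhere. It thus divided the libraries as the globin counts did. So did the sum of the 40 genes, of which Rsad2 is part. That sum was 3740 CPM in Con, 4058 and 4276 CPM at 48 h of SD and SASD, and 5267 to 8197 CPM elsewhere. The small slopes over hours do not show this rise and fall.

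Interferon transcripts themselves were scarce. The 8 interferon genes listed summed to 0.65 to 3.01 CPM, mostly Ifng, and only Ifng was abundant enough to be tested (slope -0.18 in SD). The 17 receptor and signalling genes had a median slope of 0.03 in SD and 0.05 in SASD. Their median log2 ratio of SD over SASD was 0.02, 0.20, 0.40 and -0.06 at the 4 hours. Jak1, a kinase of the interferon receptors, stayed at 728 to 980 CPM. A list of 14 genes that respond to STAT3 held Lcn2 and Cd177, which are also in the list of neutrophil granules and precursors below. It also held Il1r2, which is in the list of mature neutrophil genes below. The STAT3 list is thus not separate from the 2 neutrophil lists, and the part of STAT3 in the Ifitm levels was not tested. Of these 14 genes, the 11 tested in SD all had slopes above 0 (median 0.62), beside 46.3% of all genes. In SASD, 9 of the 12 tested did (median 0.03), beside 46.7% of all genes. Their median log2 ratio of SD over SASD was 0.02, 1.32, 1.02 and 1.19 over the 4 hours. Among them Hp, the haemoglobin-binding protein haptoglobin, stood at 119.7 CPM in Con, and at 572.1 and 180.9 CPM at 48 h of SD and SASD.

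The 8 genes beside the cluster, among them the ribonuclease inhibitor Rnh1 and the interleukin receptor inhibitor Sigirr, had SD slopes from -0.84 to 0.24 (median 0.05, beside -0.01 for all genes). Rnh1 ranged from 51.9 to 80.3 CPM, and Sigirr from 36.1 to 59.9 CPM. Of 12 partners and modifiers of IFITM proteins, such as the palmitoyltransferase Zdhhc20 and the ATPase Vcp, 6 had SD slopes above 0 (median -0.003), beside 46.3% of all genes.

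Markers of neutrophils and, in part, of classical monocytes moved beside the Ifitm genes, while those of nonclassical monocytes moved little. The 20 mature neutrophil genes summed to 3460 CPM in Con, 4431 to 13831 CPM in SD and 2874 to 4369 CPM in SASD. All 20 had SD slopes above 0 (median 0.71), while 4 of 20 had SASD slopes above 0. In the SD fit 2 of the 20 passed, Mmp8 and Cxcr1, beside 0.124% of all genes tested. No gene passed with hours on a linear scale, or without certain single SD libraries, as given above. Of all genes, 46.3% had SD slopes and 46.7% SASD slopes above 0. Their median log2 ratio of SD over SASD was 0.09, 1.39, 1.19 and 1.98 over the 4 hours, beside Ifitm family medians of -0.07, 1.52, 1.87 and 1.94. The 10 classical monocyte genes summed to 1961 CPM in Con, 2295 to 3789 CPM in SD and 1906 to 3193 CPM in SASD, with median log2 ratios of -0.18, 0.35, 0.88 and 0.07. The 10 nonclassical monocyte genes summed to 1236 CPM in Con, 1230 to 1585 CPM in SD and 1296 to 1659 CPM in SASD. Of these 10, 6 had SD slopes above 0 (median 0.08). In the fit of SD against SASD, 3 lay above 0 (median -0.07), beside 49.2% of all genes. The 13 genes of neutrophil granules and precursors had a median log2 ratio of 4.09 at 48 h, where Ngp, a granule protein, stood at 462 CPM in SD and 7.3 in SASD. The part of cell shares in the Ifitm levels was not tested.

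Set against these lists within each library, the 4 genes divided. The log2 level of Ifitm3 stayed between -0.38 and 0.36 of the mean log2 level of the classical monocyte genes over all 10 libraries. It moved between -0.35 and 1.60 against the mature neutrophil genes. Ifitm2 did the reverse, staying between -0.20 and 0.71 of the mature neutrophil genes and ranging from -0.99 to 1.31 against the monocyte genes. Ifitm1 ranged from -1.25 to 0.51 against the mean of the neutrophil genes, and from -0.81 to 3.06 against the interferon-stimulated genes. Ifitm6 ranged from -2.59 to -0.72 against the neutrophil genes and from -3.38 to -0.43 against the classical monocyte genes.

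**Figure D4:**
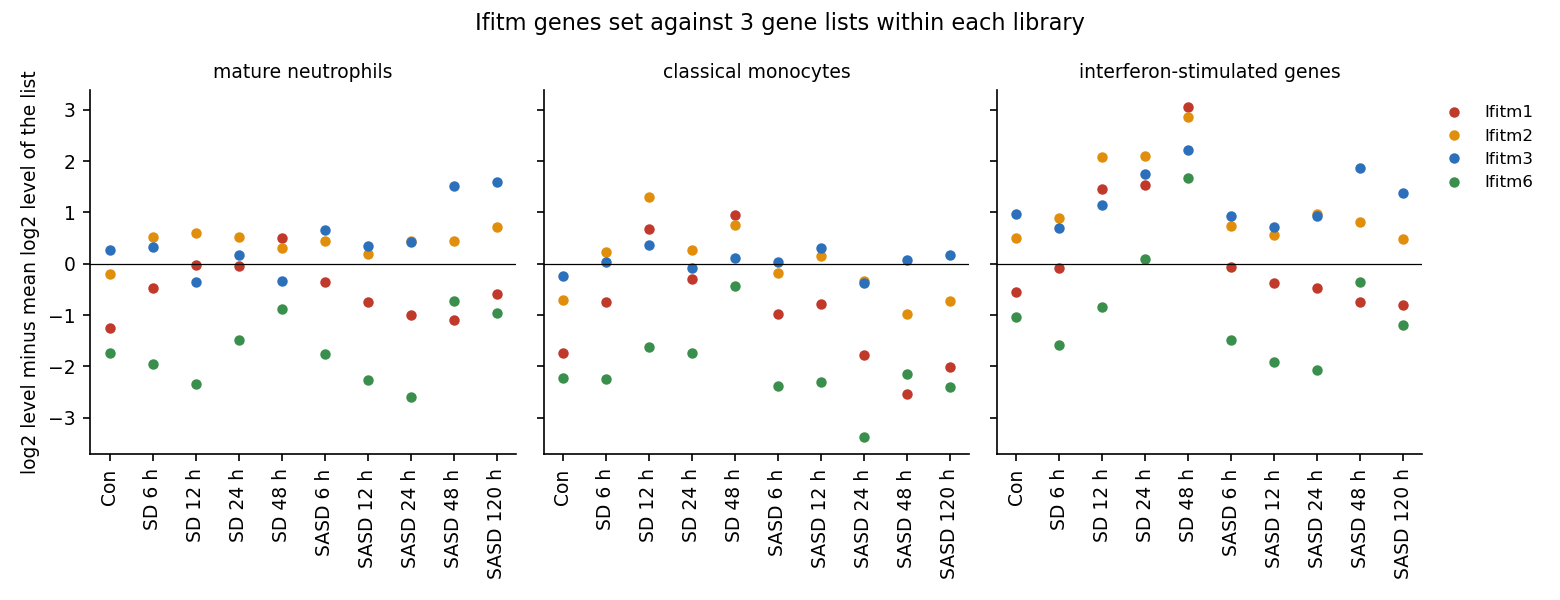
Log2 level of each Ifitm gene minus the mean log2 level of a gene list, in each of the 10 libraries, for 3 lists; 1 point is 1 library. Ifitm3 stays between -0.38 and 0.36 of the classical monocyte genes, and Ifitm1 reaches 3.06 above the interferon-stimulated genes in SD 48 h.

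The genes whose course over the 10 libraries was nearest to each member are given by the root mean square difference of centred log2 CPM, over 9620 genes averaging 100 or more counts. This is a description, since the libraries share the same changes in cell markers. Nearest to Ifitm1 were Steap4, a metalloreductase (0.36), Cd14, the co-receptor for bacterial lipopolysaccharide (0.37), Mmp8, the neutrophil collagenase (0.39), Il1r2, the interleukin 1 decoy receptor (0.41), and Tarm1, a receptor of myeloid cells (0.42). Cd14 stood at 3.04 CPM in Con, and at 67.9 and 5.63 CPM at 48 h of SD and SASD. Nearest to Ifitm2 were Hp (0.13), Clec4e, the receptor Mincle (0.16), Csf2rb, a shared cytokine receptor chain (0.17), the inflammatory cytokine Il1b (0.18) and Il13ra1 (0.18). Nearest to Ifitm3 were Cd68, a lysosomal protein of macrophages (0.11), Plbd1 (0.14), the lectin Clec4a1 (0.15), galectin-3, Lgals3 (0.17), and Cd302 (0.19). Cd68 stood at 25.8 CPM in Con, and at 68.9 and 61.2 CPM at 48 h of the 2 methods, and so was high in both, as Ifitm3 was. Nearest to Ifitm6 were S100a6 (0.32), Gm9733 (0.36), S100a9 (0.39), S100a8 (0.41) and the stefin Stfa2l1 (0.45), with S100a8 and S100a9 forming the neutrophil protein calprotectin. Each member lay further from the others than from its 5 nearest genes, at 0.48 for Ifitm1 and Ifitm2 and 1.01 for Ifitm1 and Ifitm3. Those 5 are the nearest of 9620 genes, so members could still be near by rank. Placed among genes outside the family, Ifitm2 had rank 14 for Ifitm1, and Ifitm6 had rank 85. For Ifitm6, Ifitm3 had rank 64, while for Ifitm3, Ifitm1 had rank 9289.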

How the data were processed

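Whole-number counts of read pairs per gene were deposited by the authors in 1 table of 10 libraries. Per the submitters' processing notes, Trimmomatic 0.39 and STAR 2.7.9a were used, with mm10 as the genome. Per the file headers, featureCounts 2.0.3 counted pairs over exons with a 10x Genomics mm10 annotation, with no strand option and no option for multi-mapping or multi-overlapping reads, so pairs that could not be given to 1 Ifitm copy are not in these counts. Ifitm2 and Ifitm5 exons overlap the annotated read-through gene Gm45717, which was not analysed here. Gene symbols came from a mouse gene table, which named 32158 of the 32285 genes; the other 127 stayed in the library totals. All 10 count columns were used.

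Counts were scaled by TMM and fitted with edgeR 4.0.16 (glmQLFit, glmQLFTest) in R 4.3.3 over genes averaging 10 or more counts, with Benjamini-Hochberg adjustment over all of them at 0.05. Trends used log2(1 + hours/6). The code was tested on simulated data. Single-library ratios are set beside genes averaging 25 or more counts over both libraries, and their 95% intervals are exact binomial intervals conditional on the 2 counts. Centred log2 CPM used a prior count of 2. Alternatives were DESeq2 1.42.0, its size factors, total counts, no count minimum, each library left out, a term for globin-poor libraries, hours on a linear scale and other transcript lengths. Named genes were the Ifitm genes, the 5 nearest in course to each member, genes among the 3 most abundant of each list, and list genes called. Mmp8 and Cxcr1 were named because a list's count of called genes was under 5, and Cd177 because lists share it. The members and the 19 gene lists were chosen with earlier results of these data known. Where nothing says that libraries came from separate groups of animals, p-values measure the spread between these libraries.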

Additional observations from a re-analysis of the deposited data

How the results depend on the processing

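With 1 library in each group, the fits measure spread around a course, not between replicates, and counting error is the only error of a single ratio. The count of genes called for the SD trend, 18, was 456 with DESeq2, 63 with no count minimum, 796 with a term for the globin-poor libraries and 0 on linear hours. Leaving out 1 library gave from 0 (without SD 6, 12 or 24 h) to 511 (without SD 48 h), with 53 without Con. The SASD trend called 0 genes and from 0 to 1 with a library left out, the 1 without SASD 48 h. SD against SASD called 0 genes, 169 with DESeq2, 389 with no count minimum, and from 0 to 237 with an hour left out, the 237 without 6 h. The cause of these differences was not tested.

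Of 112 slopes and differences of the 4 Ifitm genes under other settings, 98 kept their direction and, for SASD slopes and SD against SASD, their side of the threshold. SD slopes were compared by direction and size, or by direction alone on linear hours, and 5 of them moved. In SD against SASD, 7 crossed the threshold. The genes were chosen from those SD libraries, so nothing is read from these 7. The other 2 turned sign: with a library left out, the SASD slope of Ifitm1 ran from -0.21 (without Con) to 0.071 (without SASD 6 h), and that of Ifitm2 from -0.044 (without Con) to 0.20. The 4 SD slopes were above 0 in every setting run, and the lowest and highest with a library left out were 1.15 and 1.37 for Ifitm1. Of 104 single-library log2 ratios under other scalings, 70 stayed within their interval and 33 moved. The remaining 1 turned sign with a TMM interval that left out a log2 ratio of 0: Ifitm3 in SASD 12 h over Con (-0.13 with total counts, 0.13 with TMM). Changes of sign in ratios whose interval held 0 were not counted as turns.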

Other observations

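Ifitm5, the neighbour of Ifitm2 on the same strand of chromosome 7, had 18 and 19 read pairs in SD at 12 and 24 h, at 1.80 and 1.78 CPM. It had 3 read pairs in SD 6 h, 12 in SD 48 h and 10 in Con. In SASD it had 11, 3, 1, 4 and 3 read pairs at 6, 12, 24, 48 and 120 h, so the libraries with most Ifitm5 were those of SD at 12 and 24 h. GENCODE lists a read-through gene, Gm45717 on the same strand, whose exons overlap those of both Ifitm5 and Ifitm2. It was not analysed here, and its part in these counts was not tested.

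Over the 10 libraries, the standard deviation of log2 CPM was 1.33 for Ifitm1, 0.91 for Ifitm2, 0.59 for Ifitm3 and 1.12 for Ifitm6. Of 9620 genes averaging 100 or more counts, 99.4%, 98.1%, 92.8% and 99.1% varied less than each of them. As the genes were chosen from these libraries, these places are a description.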
